A study of Sus scrofa with 36 samples.

Results

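The subject here is the mitochondrial genome of the pig heart, as the set of 37 genes that a count table of 25880 genes places on the chromosome MT. Members were taken by that chromosome label, and the rule uses no measured value. They are 13 protein genes, 2 ribosomal RNA (rRNA) genes and 22 transfer RNA (tRNA) genes. RNA-seq was done on left ventricle of 24 Yorkshire-landrace pigs, in 36 libraries that fall into 12 groups of 3. Old Late pigs were operated on at 14 days of age and sampled 1 week later, and Young Late pigs were operated on at 2 days of age and sampled 1 week later. Old Early pigs were operated on at 14 days and sampled 1 day later, and Young Early pigs at 2 days and sampled 1 day later. In 12 pigs branches of 2 coronary arteries were permanently tied, and each gave a library from the infarct zone (IZ) and another from the border zone (BZ). The other 12 pigs had sham surgery at the same ages (Sham) and gave a library each from the anterior wall of the left ventricle. All pigs are of 1 breed, and no group carries a transgene or other genetic change in the labels.

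Mitochondria keep a small circular genome that codes for core subunits of the respiratory chain and for the rRNAs and tRNAs that translate them, while the remaining subunits and every factor that copies and transcribes that genome come from the nucleus. Its strands are read as long precursors that are cut at the tRNAs, so that most protein genes share a transcript, and ND6 stands alone on the opposite strand with a minority of the tRNAs. Heart muscle is among the tissues richest in mitochondria, and these transcripts are among its most abundant RNAs. The libraries were made from polyadenylated RNA. The tRNAs do not carry the tails of messenger RNAs, and in human cells the ND6 transcript carries little or no tail, so counts of these members are of what passed that selection.

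The subunits of complex I, which takes electrons from NADH, are ND1 (MT:3922-4876), ND2 (MT:5087-6128), ND3 (MT:10653-10998), ND4L (MT:11069-11365), ND4 (MT:11359-12736), ND5 (MT:12935-14755) and ND6 (MT:14739-15266, minus strand). CYTB (MT:15342-16481) is the cytochrome b of complex III. COX1 (MT:6511-8055), COX2 (MT:8203-8890) and COX3 (MT:9800-10583) form the core of complex IV, which passes electrons to oxygen. ATP8 (MT:8959-9162) and ATP6 (MT:9120-9800) are subunits of the ATP synthase. The rRNA genes are 960 bases (MT:1246-2205) and 1571 bases (MT:2274-3844) long and are called the shorter and the longer rRNA gene here. The tRNA genes carry no name in the sources used here and are given by position. The starts and ends of all 37 genes equal those of the Sscrofa11.1 assembly in RefSeq, although the build used for counting is not given in the sources used here. Counts of ATP8 and ATP6, which share 43 bases, of ND4L and ND4, which share 7, and of ND5 and ND6, which share 17 on opposite strands, can each hold reads of the other.

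Library totals ran from 8113200 to 39789874 counts, and 2133476 to 11246171 counts of a library fell on mitochondrial genes. The RNA integrity number lay between 6.3 and 8.4 in every library. Young Early BZ replicate 2 stood apart: it was the deepest library, COX1 and COX3 took 43.5% and 26.7% of its mitochondrial counts, and ATP8 took 0.0758%. In the other libraries COX1 took at most 38.3% and COX3 at most 17.3%. Preparation batch was the same for all 9 libraries of each set of age and time except Young Late, which mixed batches 1 and 2, so the comparisons with Sham in the other 3 sets are within a batch. Labels name a separate pig for each of the libraries of a group. Outside the comparison of IZ with BZ, the p-values per gene rest on the spread between pigs within groups, pooled over all 12 groups. That fit has no term for the pig, so the IZ and BZ libraries of a pig count as separate in it.

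Per length, mitochondrial messengers were the most abundant transcripts of these hearts. In TPM (counts divided by gene length and scaled to a sum of 1000000 per library), COX1 ranked 1 of all genes by its median level of 91464 TPM, with a range of 45175 to 131040 TPM over the 36 libraries. ATP6 ranked 2 with a median of 77339 TPM and COX3 ranked 3 with 76209 TPM. COX2 ranked 4 with 51061 TPM, CYTB 5 with 31553 TPM and ATP8 6 with 26371 TPM. Of the 10 most abundant genes 8 were mitochondrial, and of the 20 most abundant 12 were. The complex I messengers lay lower, from 22589 TPM for ND4 to 6216 TPM for ND1, and ND6 lay lowest of the protein genes, at a median of 1036 TPM and rank 63. The longer rRNA gene had a median of 1160 TPM and the shorter 826 TPM. Neighbours in this order overlapped in their ranges over the libraries, COX3, for example, at 41759 to 117462 TPM and ATP6 at 16697 to 112994 TPM. The tRNA genes held between 0 and 11717 counts in a library, and the tRNA gene at MT:1176-1245, with 0 counts in 23 libraries and at most 4, did not pass the count filter, which leaves 36 members tested.

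**Figure D1:**
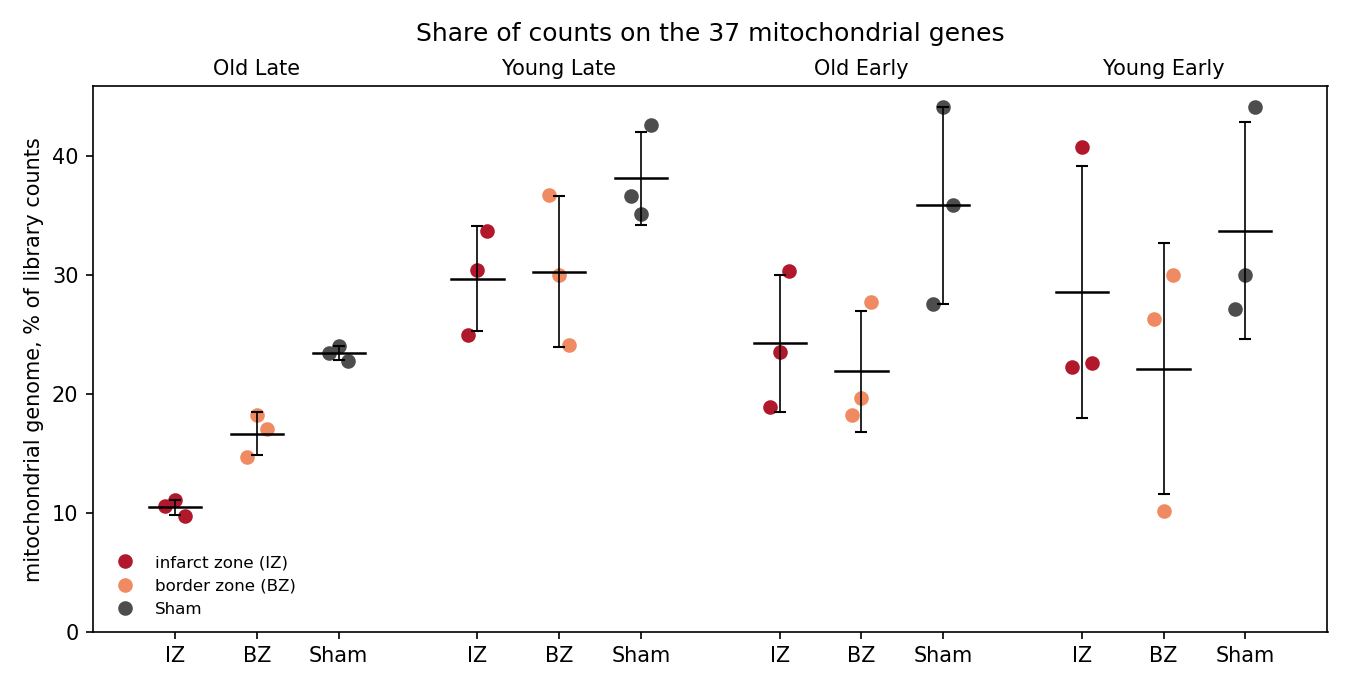
Share of all counts of a library that fell on the 37 mitochondrial genes (y axis, percent), for IZ, BZ and Sham in each set of age and time (x axis). Points are libraries, black lines are group means and bars are 1 SD (n = 3). The 3 Old Late IZ libraries lie between 9.75% and 11.0%, and the 3 Old Late Sham libraries between 22.8% and 24.0%.

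After infarction the mitochondrial genome took a smaller share of the library, and in Old Late hearts the zones stood in order. Old Late IZ libraries gave 10.6%, 11.0% and 9.75% of their counts to mitochondrial genes, Old Late BZ libraries 14.7%, 18.2% and 17.1%, and Old Late Sham libraries 23.4%, 24.0% and 22.8%. No library of these 3 groups overlapped another group. The mean was 10.5% ± 0.654 in IZ, 16.7% ± 1.78 in BZ and 23.4% ± 0.603 in Sham (SD, n = 3 each). Counting error is small here, since the 95% Wilson interval of a library's share was at most 0.066 percentage points wide, and covers counting error only. In bulk tissue, fewer cells of a type and less RNA per cell cannot be told apart.

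The other sets spread more widely. Young Late IZ libraries gave 25.0%, 30.4% and 33.7%, Young Late BZ libraries 36.7%, 30.0% and 24.1%, and Young Late Sham libraries 36.6%, 35.1% and 42.6%. All 3 Young Late IZ libraries lay below their Sham libraries, whereas the Young Late BZ libraries overlapped them. Old Early IZ libraries gave 18.9%, 23.5% and 30.3%, Old Early BZ libraries 18.3%, 19.7% and 27.7%, and Old Early Sham libraries 27.6%, 44.1% and 35.9%. Young Early IZ libraries gave 22.3%, 40.8% and 22.6%, Young Early BZ libraries 26.3%, 10.1% and 29.9%, and Young Early Sham libraries 27.1%, 30.0% and 44.1%. In both Early sets the zones overlapped Sham, and the lowest Young Early value was that of BZ replicate 2.

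Over the 4 sets together, the share was lower in IZ than in Sham by a mean log2 difference of -0.59, a ratio of 0.664 (exact permutation test within sets, two-sided, p = 0.0011, adjusted p = 0.00825 over 15 tests of 5 measures). BZ was lower than Sham by -0.57, a ratio of 0.674 (exact permutation p = 0.0002625, adjusted p = 0.00394). The geometric mean was below that of Sham in each of the 4 sets in both zones. IZ and BZ of the same 12 pigs differed by a mean log2 of -0.02, with IZ above BZ in 6 of 12 pigs (exact sign-flip permutation test, adjusted p = 0.942). Without Young Early BZ replicate 2, the library that stood apart, that difference was -0.21 (exact permutation adjusted p = 0.404). Within a set of 3 against 3 libraries the smallest p possible is 0.1, which Old Late IZ, Old Late BZ and Young Late IZ reached against Sham.

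Gene by gene, the protein and rRNA genes of the mitochondrial genome fell in the Old Late infarct zone, and most tRNA genes were not called. Of 36 members tested, 21 fell, 0 rose and 15, all tRNA genes, were not called, against 24% of all 14537 genes called lower (edgeR quasi-likelihood test, Benjamini-Hochberg adjusted p under 0.05 over all genes). All 13 protein genes and both rRNA genes fell. The median log2 fold change of the protein genes was -1.78, within a range of -2.15 to -1.48, while the median of all genes tested was -0.04. In 29 of 36 members every IZ library lay below every Sham library, against 32.2% of all genes.

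Values per library are given as CPM (counts per 1000000 counts of the library, after TMM scaling), which sets each library against its typical gene. COX1 had 23839, 23450 and 20378 CPM in Old Late IZ, 38588, 52456 and 44631 CPM in Old Late BZ and 79696, 78188 and 74919 CPM in Old Late Sham. The 3 groups were in order without overlap, and the IZ difference from Sham was -1.78 ± 0.37 (log2 fold change ± SE, edgeR adjusted p = 0.000212). COX3 had 12075, 9706 and 8567 CPM in IZ, 16982, 23277 and 17646 CPM in BZ and 28379, 29400 and 27185 CPM in Sham, again in order, with an IZ difference of -1.49 ± 0.38 (edgeR adjusted p = 0.00184). COX2, the subunit that takes electrons from cytochrome c, had 5831, 5407 and 4766 CPM in IZ, 8598, 11327 and 10258 CPM in BZ and 16923, 17787 and 16541 CPM in Sham, and fell in IZ by 1.68 ± 0.48 on the log2 scale. All 3 subunits of complex IV were thus in the order of IZ, BZ and Sham in every library. CYTB had 6753, 6576 and 4912 CPM in IZ, 9335, 14630 and 12431 CPM in BZ and 20845, 23070 and 20309 CPM in Sham, a difference of -1.82 ± 0.38 for IZ (edgeR adjusted p = 0.00028).

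Among complex I messengers, ND5 had 3872, 5334 and 3878 CPM in Old Late IZ, 5887, 7244 and 9644 CPM in Old Late BZ and 16848, 18356 and 15811 CPM in Old Late Sham. Its IZ libraries all lay below BZ, and both zones below Sham (IZ difference -1.96 ± 0.45, edgeR adjusted p = 0.00067). ND2 had 2048, 2313 and 1637 CPM in IZ, 2830, 4917 and 4597 CPM in BZ and 8477, 9196 and 8984 CPM in Sham, in order without overlap, and the lowest fold change of the protein genes in IZ, at -2.15 ± 0.58. ND4 had 6779, 6513 and 4351 CPM in IZ, 9309, 13615 and 12492 CPM in BZ and 15676, 16199 and 17492 CPM in Sham, and fell in IZ by 1.48 ± 0.42 on the log2 scale. ND4L had 558, 888 and 532 CPM in IZ, 797, 1104 and 1490 CPM in BZ and 2196, 2290 and 2567 CPM in Sham, with overlap of IZ and BZ, and fell in IZ by 1.83 ± 0.49. ND3 had 1259, 899 and 719 CPM in IZ, 1524, 2579 and 1848 CPM in BZ and 2574, 2778 and 2763 CPM in Sham. The ND3 libraries of IZ lay lowest, and BZ overlapped Sham. ND6, from the opposite strand, had 182, 212 and 142 CPM in IZ, 185, 355 and 277 CPM in BZ and 624, 820 and 605 CPM in Sham. Its IZ and BZ libraries overlapped and both lay below Sham (IZ difference -1.93 ± 0.53, edgeR adjusted p = 0.00367). For the ATP synthase, ATP6 had 9936, 8092 and 7357 CPM in IZ, 13974, 20081 and 15863 CPM in BZ and 27465, 27427 and 26074 CPM in Sham, in order without overlap (IZ difference -1.67 ± 0.42, edgeR adjusted p = 0.0016).

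The rRNA genes had the lowest log2 fold changes outside the tRNAs, in counts of what passed the selection for polyadenylated RNA. The shorter rRNA gene had 142, 132 and 88.3 CPM in Old Late IZ, 273, 490 and 325 CPM in Old Late BZ and 624, 661 and 565 CPM in Old Late Sham (IZ difference -2.35 ± 0.50, edgeR adjusted p = 0.000278). The longer had 189, 194 and 154 CPM in IZ, 471, 619 and 494 CPM in BZ and 806, 1016 and 744 CPM in Sham (IZ difference -2.26 ± 0.45, edgeR adjusted p = 0.000133). In both, the IZ libraries lay lowest, then BZ, then Sham. Of 21 tRNA genes tested, 6 fell. The tRNA gene at MT:11000-11068, between ND3 and ND4L, had 2, 13 and 5 counts in IZ, 19, 21 and 29 counts in BZ and 427, 290 and 739 counts in Sham, a log2 fold change of -6.71 ± 1.19 for IZ that rests on few counts (edgeR adjusted p = 3.36e-05). The tRNA gene at MT:5017-5086, just before ND2, had 10.6, 15.1 and 7.93 CPM in IZ, 10.5, 36.0 and 27.7 CPM in BZ and 55.6, 76.8 and 80.9 CPM in Sham, with an IZ difference of -2.67 ± 0.53.

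Of the 15 protein and rRNA genes called in the Old Late IZ, 13 remained called without each of the 6 libraries in turn, and ND1 and ATP8 did not. ND1 had 805, 771 and 585 CPM in IZ, 1023, 1736 and 1513 CPM in BZ and 2619, 2734 and 2802 CPM in Sham (IZ difference -1.92 ± 0.76, edgeR adjusted p = 0.0387). ATP8 had 809, 761 and 688 CPM in IZ, 1186, 1604 and 1479 CPM in BZ and 2509, 2605 and 2443 CPM in Sham (IZ difference -1.74 ± 0.73, edgeR adjusted p = 0.0482). In both genes the 3 groups did not overlap. The count of members called ran from 17 to 19 with a library left out.

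**Figure D2:**
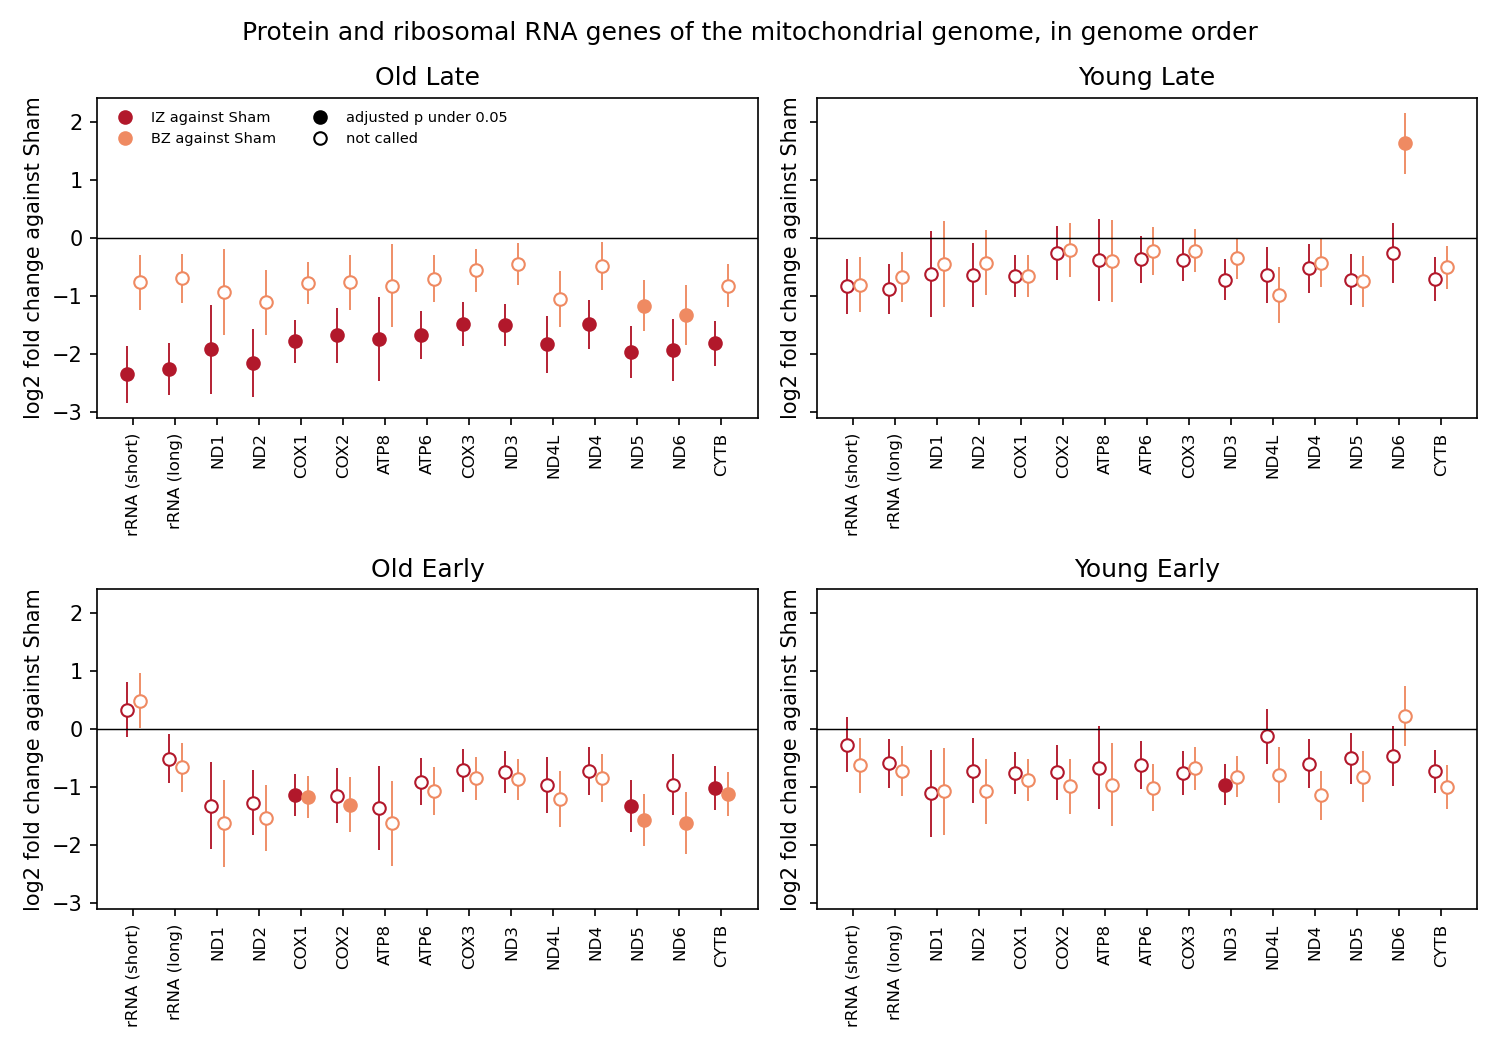
Log2 fold change against Sham (y axis) of the 13 protein and 2 rRNA genes in genome order (x axis), 1 panel for each set, IZ in dark red and BZ in orange. Bars are the standard error of the edgeR fit (n = 3 libraries a group), and filled points have an adjusted p under 0.05. In the Old Late panel all 15 IZ points are filled, between -2.35 and -1.48, and the BZ point of each gene lies above its IZ point.

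Markers of other cell types moved in the same libraries. Summed cardiomyocyte markers (10 of 14 found in the table) were 45660 to 60470 counts per 1000000 nuclear counts in Old Late IZ, 73630 to 106500 in Old Late BZ and 125600 to 140900 in Old Late Sham, and 9 of 10 fell in IZ. Fibroblast markers (8 of 8 found) were 26470 to 36160 in IZ, 10500 to 24820 in BZ and 1689 to 2128 in Sham. Macrophage markers (8 of 8 found) were 1058 to 1470 in IZ, 466 to 1222 in BZ and 137 to 199 in Sham. Neutrophil markers (5 of 7 found) were 252 to 710 in IZ, 43.7 to 460 in BZ and 0.315 to 0.82 in Sham. Smooth muscle markers (4 of 4 found) were 2696 to 4206 in IZ, 1761 to 3252 in BZ and 158 to 179 in Sham. Endothelial markers (5 of 6 found) were 363 to 573 in IZ, 348 to 414 in BZ and 387 to 432 in Sham. T and B cell markers (5 of 5 found) were 69.2 to 118 in IZ, 69.6 to 91.6 in BZ and 37.9 to 56.6 in Sham, and red blood cell markers (5 of 6 found) were 60.8 to 98.0 in IZ, 46.9 to 158 in BZ and 88.4 to 184 in Sham. Skeletal muscle markers (4 of 6 found) summed to at most 0.387 in these libraries, with MYF5 at 0 in all 36 libraries. In the other sets summed cardiomyocyte markers were 88830 to 114300 in IZ and 128300 to 157600 in Sham of Young Late, 50880 to 76930 in IZ and 119400 to 128400 in Sham of Old Early, and 53360 to 72780 in IZ and 136400 to 146700 in Sham of Young Early. RNA integrity was 7.1 to 7.6 in Old Late IZ, against 7.8 to 8.4 in the Sham libraries of that set. The part of these cells and of RNA integrity in the fall of the mitochondrial genes was not tested.

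Many nuclear genes that serve the mitochondrial genome fell in the same tissue, where 24% of all genes were called lower. Of 31 nuclear subunits of the respiratory chain tested, 28 fell and 0 rose in Old Late IZ, with a median log2 fold change of -1.35. Of 10 regulators of mitochondrial biogenesis 7 fell and 0 rose, with a median of -1.45. PPARGC1A, the coactivator PGC-1 alpha that turns on mitochondrial genes, averaged 24.9 CPM in Old Late IZ, against 174 CPM in Old Late Sham (log2 fold change -2.81 ± 0.30, edgeR adjusted p = 2.62e-08). ESRRA, a nuclear receptor that works with it, averaged 60.8 CPM in IZ and 234 CPM in Sham (-1.94 ± 0.21). Of 19 genes of mitochondrial DNA transcription and replication 9 fell, 0 rose and 10 were not called. TFAM, which packages mitochondrial DNA and helps start its transcription, fell by 1.28 ± 0.24 on the log2 scale, and TWNK, the replicative helicase, by 1.69 ± 0.24. POLRMT, the mitochondrial RNA polymerase, fell by 0.52 ± 0.18, whereas POLG, the replicative polymerase, was at -0.14 ± 0.17 and SSBP1, which coats single strands, at 0.05 ± 0.17, neither called. Of 29 genes of mitochondrial RNA processing 18 fell, 1 rose and 10 were not called. LRPPRC, which stabilises mitochondrial messengers, fell by 1.40 ± 0.22, while its partner SLIRP was at -0.41 ± 0.42 and not called.

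In the infarct zone of the other sets few members passed the test, and their share was no larger than that of all genes. In Young Late IZ the 13 protein genes had a median of -0.62, and 1 member of 36 fell, against 13% of all genes called lower. That member is the tRNA gene at MT:10584-10652, between COX3 and ND3, with 2.58, 8.12 and 9.55 CPM in Young Late IZ and 8.99, 35.6 and 23.3 CPM in Young Late Sham, which overlap (log2 fold change -1.74 ± 0.53, edgeR adjusted p = 0.0133). In 10 of 36 members Young Late IZ lay below Sham without overlap, against 21.8% of all genes. Without Young Late IZ replicate 1 or Sham replicate 2 the count was 0, and without Sham replicate 1 it was 2.

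In Old Early IZ 5 of 36 members fell (13.9%), against 14.8% of all genes called lower, and the protein genes had a median of -1.01. COX1 had 50792, 70638 and 66296 CPM in Old Early IZ and 97559, 193350 and 121670 CPM in Old Early Sham, without overlap (-1.14 ± 0.36, edgeR adjusted p = 0.0157). CYTB was at -1.01 ± 0.38 and ND5 at -1.32 ± 0.44, also without overlap. The tRNA genes at MT:2206-2273 and MT:5017-5086 also fell. The gene at MT:2206-2273 had 4, 1 and 31 counts in IZ and 5, 87 and 62 counts in Sham. It is among the genes that separate the 2 kinds of library described below, which IZ and Sham of this set hold in unequal numbers. In 11 of 36 members IZ lay below Sham without overlap, against 26.4% of all genes. The count was 0 without IZ replicate 1, 9 without IZ replicate 3, 1 without Sham replicate 2 and 3 without Sham replicate 3.

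In Young Early IZ 1 of 36 members fell, against 12% of all genes called lower, and the protein genes had a median of -0.72. It is ND3, with 2144, 6184 and 2405 CPM in Young Early IZ and 5636, 5523 and 9656 CPM in Young Early Sham (-0.96 ± 0.36, edgeR adjusted p = 0.0467). The highest IZ library, replicate 2, overlapped the Sham libraries, and in 0 of 36 members did all IZ libraries lie below Sham, against 20.7% of all genes. Without IZ replicate 2 the count was 8, and without IZ replicate 1, IZ replicate 3, Sham replicate 1 or Sham replicate 3 it was 0. In the same contrast all 31 nuclear respiratory subunits fell, with a median log2 fold change of -1.25.

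In the border zone of Old Late hearts few members passed the test. Of 36 members 4 fell, against 19.7% of all genes called lower, and the protein genes had a median of -0.82. The called members are ND5 (-1.16 ± 0.44, edgeR adjusted p = 0.0362), ND6 (-1.33 ± 0.52, edgeR adjusted p = 0.0444) and the tRNA genes at MT:5017-5086 and MT:11000-11068. In 23 of 36 members BZ lay below Sham without overlap, against 32.7% of all genes. The count was 1 without BZ replicate 1 or Sham replicate 3, and 2 without Sham replicate 1. When the fit held the BZ and Sham libraries of this set only, 20 members were called, all lower, and with RNA integrity as a covariate 12. The 19.7% is of the main fit, and the share of all genes called in these other fits is not given here.

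In Old Early BZ 8 of 36 members fell (22.2%), against 8.46% of all genes called lower, with a median of -1.21 for the protein genes. COX1 had 65168, 61596 and 57812 CPM in Old Early BZ, below every Old Early Sham library (-1.16 ± 0.36, edgeR adjusted p = 0.0213). In the same libraries summed cardiomyocyte markers were 58800 to 101800 in BZ and 119400 to 128400 in Sham, fibroblast markers 5043 to 6350 in BZ and 1420 to 2399 in Sham, and macrophage markers 512 to 960 in BZ and 174 to 254 in Sham, and their part in the result was not tested. COX2, ND5, ND6 and CYTB fell too, by 1.12 to 1.61 on the log2 scale, with 3 tRNA genes. Only COX2 among these 5 protein genes overlapped Sham. In 14 of 36 members BZ lay below Sham without overlap, against 20% of all genes. The count was 2 without BZ replicate 1, 3 without BZ replicate 2, 1 without Sham replicate 2 and 5 without Sham replicate 3. In Young Early BZ 0 members passed edgeR's test, against 0.33% of all genes called lower. At an unadjusted p under 0.05 there were 9 members, 3 higher and 6 lower, and DESeq2 and limma-voom called 0. The share of all genes at that unadjusted threshold is not given here. In 6 of 36 members BZ lay below Sham without overlap, against 6.33% of all genes. Without BZ replicate 1 members called were 2 higher and 1 lower, and without BZ replicate 3 they were 2 higher and 0 lower.

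Young Late BZ was the only contrast with Sham in which members rose in the fit of all libraries. Of 36 members 3 rose, a share close to the 8.25% of all genes called higher, and 1 fell, against 6% called lower. ND6 had 1366, 838 and 210 CPM in Young Late BZ and 357, 163 and 257 CPM in Young Late Sham (1.63 ± 0.53, edgeR adjusted p = 0.0376). BZ replicates 1 and 2 were high and replicate 3 lay among the Sham libraries. The tRNA gene next to ND6 on the same strand, at MT:15267-15335, had 852, 285 and 30 counts in BZ and 18, 7 and 18 counts in Sham (4.30 ± 0.93, edgeR adjusted p = 0.0033). The tRNA gene at MT:8059-8129, also on the minus strand, had 11717, 6199 and 417 counts in BZ and 589, 56 and 201 counts in Sham (4.25 ± 1.26, edgeR adjusted p = 0.0245). Its level varied widely elsewhere too, with 9418 counts in Young Early BZ replicate 2 and 3290, 4243 and 4635 in Old Late Sham. All 3 members lie on the minus strand, of whose 9 genes the other 6 were not called. In all 3 the same BZ libraries, replicates 1 and 2 of batch 2, were high while replicate 3, of batch 1, was not. Young Late IZ replicates 2 and 3 and Sham replicates 1 and 3 are of batch 2 too. They had 7, 24, 18 and 18 counts at MT:15267-15335 and 289, 264, 589 and 201 counts at MT:8059-8129. Their ND6 levels were 190, 269, 357 and 257 CPM. The member that fell is the tRNA gene at MT:10584-10652 (-2.30 ± 0.54). Summed fibroblast markers were 2283 to 6482 in Young Late BZ and 1009 to 1581 in Young Late Sham, and macrophage markers 200.5 to 583 in BZ and 77.3 to 88.2 in Sham, and their part was not tested. In 9 of 36 members BZ lay below Sham without overlap, against 17.1% of all genes. The count of members called was 1 without Sham replicate 2, 2 without BZ replicate 1, BZ replicate 2 or Sham replicate 3, and 1 with Young Late batch 2 alone. Limma-voom with the pig as a random block called 0 members higher and 1 lower.

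**Figure D3:**
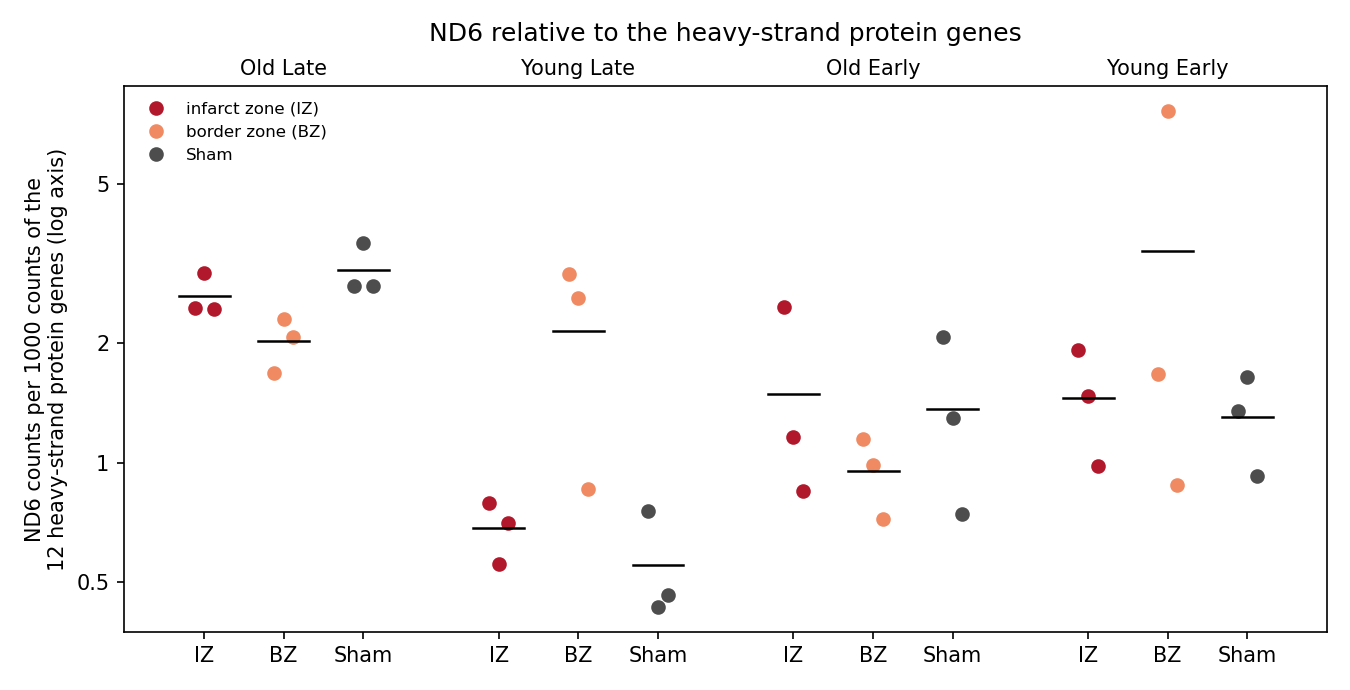
Counts of ND6 per 1000 counts of the 12 protein genes of the other strand (y axis, log scale), for IZ, BZ and Sham in each set (x axis). Points are libraries and black lines group means (n = 3). The highest library is Young Early BZ replicate 2 at 7.64, and 2 of the 3 Young Late BZ libraries lie at 2.97 and 2.58, above the IZ and Sham libraries of that set.

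The balance between the strands varied with set and library. ND6 stood at 2.44, 3.00 and 2.43 counts per 1000 counts of the other protein genes in Old Late IZ, at 1.68, 2.29 and 2.07 in Old Late BZ and at 2.78, 3.56 and 2.77 in Old Late Sham. In Young Late hearts it stood at 0.792, 0.555 and 0.706 in IZ, at 2.97, 2.58 and 0.858 in BZ and at 0.757, 0.433 and 0.463 in Sham. All 9 Old Late libraries thus lay above all 6 Young Late IZ and Sham libraries, and Young Late BZ lay above its Sham libraries without overlap. Old Late and Young Late libraries also differ in preparation batch and in the kind of library described below. Over the 4 sets neither zone differed from Sham by the exact permutation test, with a mean log2 difference of 0.09 for IZ (adjusted p = 0.913) and 0.40 for BZ (adjusted p = 0.599).

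Within the mitochondrial counts, rRNA genes took 0.436% ± 0.0221 in Old Late IZ, 0.662% ± 0.0523 in Old Late BZ and 0.648% ± 0.0645 in Old Late Sham (SD, n = 3 each), and IZ lay below the others without overlap. In Old Early hearts they took 1.90%, 1.90% and 1.11% in IZ, 2.10%, 2.24% and 0.906% in BZ and 0.735%, 0.928% and 0.984% in Sham, with IZ above Sham in all libraries. Over all sets the rRNA share differed from Sham by a mean log2 of 0.06 in IZ (exact permutation adjusted p = 0.913) and 0.26 in BZ (adjusted p = 0.421). This share, too, is of counts that passed the selection for polyadenylated RNA. The tRNA genes together took 0.196% ± 0.0102 of mitochondrial counts in Old Late IZ, 0.115% ± 0.0486 in Old Late BZ and 0.145% ± 0.034 in Old Late Sham. The tRNA gene at MT:8059-8129, next to COX1, made up most of that sum in Old Late IZ, with 0.167%, 0.166% and 0.156% of mitochondrial counts, against 0.0588%, 0.0896% and 0.0988% in Old Late Sham. Without it the other tRNA genes took 0.0305%, 0.0394% and 0.0295% in IZ, against 0.0506%, 0.0582% and 0.0784% in Sham, so the direction between these groups turned. Over all sets the share of all tRNA genes differed from Sham by 0.10 in IZ and 0.14 in BZ on the log2 scale (exact permutation adjusted p = 0.913 for each), and without that gene by -0.38 in IZ (adjusted p = 0.328) and -0.34 in BZ (adjusted p = 0.382).

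Between the zones of the same pigs, mitochondrial genes differed in Old Late hearts and were not called in the other sets. In the fit with the pig as a block, 2 of 36 members were lower in Old Late IZ than in Old Late BZ, against 1.61% of all 14386 genes called lower. They are the longer rRNA gene (-1.58 ± 0.33, edgeR adjusted p = 0.0383) and the tRNA gene at MT:8135-8202 (-1.07 ± 0.24, edgeR adjusted p = 0.045). The 13 protein genes lay lower as well, with log2 fold changes of -1.08 to -0.60, none called. The count was 0 without any one of the 6 libraries. It was also 0 when the pig of BZ replicate 3 was read from a label that disagrees with the title. When the fit held only the libraries of this set the count was 19. The share of all genes called in that fit is not given here. For the counts at an unadjusted p that follow, the share of all genes at that threshold is not given here. In Young Late hearts 0 of 36 members were called, with 0% of all genes called, 3 members at an unadjusted p under 0.05 and 3 called by DESeq2. Without replicate 3 of either zone 3 were called. In Old Early hearts 0 of 36 were called, with 0% of all genes, 0 at an unadjusted p under 0.05 and 0 by DESeq2. In Young Early hearts 0 of 36 were called, although 10.7% of all genes were, with 3 members at an unadjusted p under 0.05 and 2 called by DESeq2. Without replicate 1 of either zone 1 was called. The protein genes of Young Early hearts had a median IZ over BZ difference of 0.24, while 29 of 31 nuclear respiratory subunits were lower in IZ, with a median of -1.22.

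**Figure D4:**
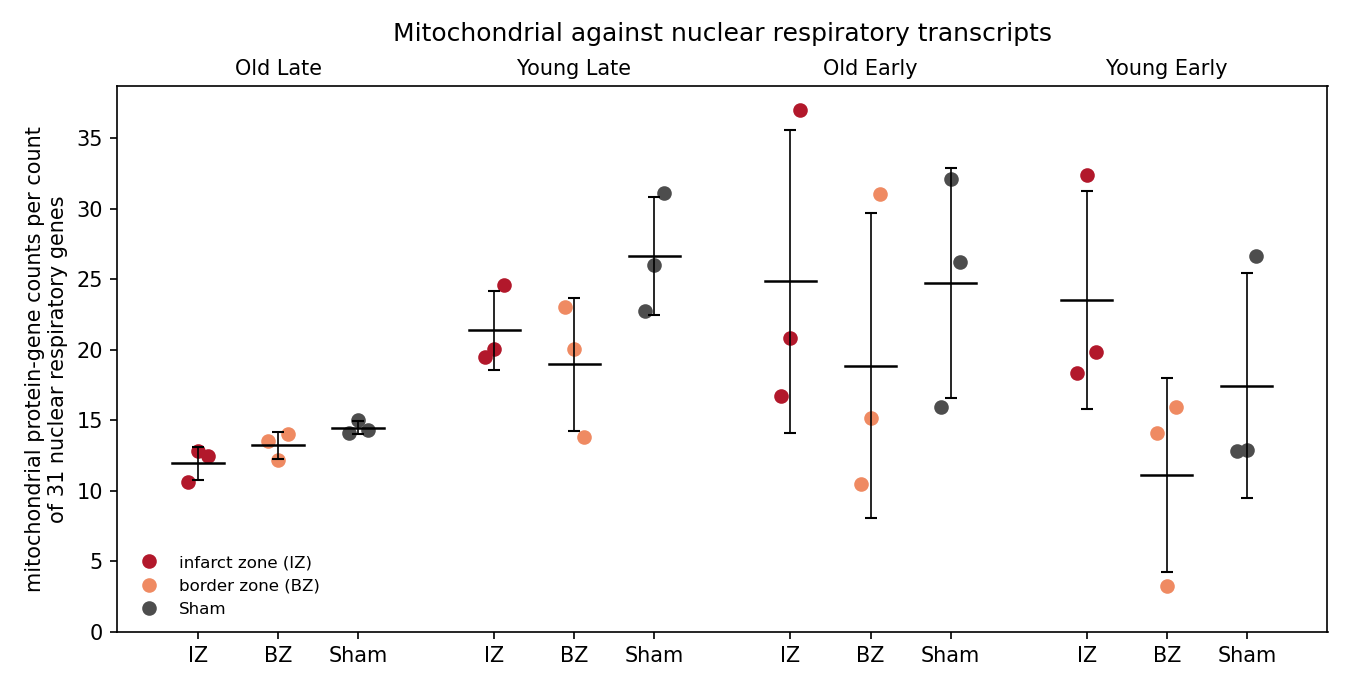
Counts of the 13 mitochondrial protein genes per count of 31 nuclear respiratory subunits (y axis), for IZ, BZ and Sham in each set (x axis). Points are libraries, black lines are means and bars are 1 SD (n = 3). Old Late values lie within 10.6 to 15.0, and the lowest library is Young Early BZ replicate 2 at 3.26.

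Set against nuclear respiratory transcripts, the mitochondrial messengers of Old Late hearts differed less between groups than against all counts. There were 10.6, 12.8 and 12.5 mitochondrial protein-gene counts per nuclear respiratory count in Old Late IZ, with 13.6, 12.2 and 14.0 in BZ and 14.1, 15.0 and 14.3 in Sham of that set. Both zones lay below Sham without overlap, at ratios of 0.823 for IZ and 0.913 for BZ. In Young Early hearts the ratio was 18.3, 32.4 and 19.9 in IZ, 14.1, 3.26 and 16.0 in BZ and 12.8, 12.9 and 26.7 in Sham, with every IZ library above every BZ library. Over the 4 sets IZ differed from Sham by a mean log2 of -0.03 (exact permutation adjusted p = 0.942). BZ differed from Sham by -0.50 (exact permutation p = 0.0396, adjusted p = 0.178) and IZ from BZ by 0.46 (exact sign-flip permutation p = 0.0474, adjusted p = 0.178), with IZ above BZ in 8 of 12 pigs. Neither passed adjustment, and without Young Early BZ replicate 2 the differences were -0.31 for BZ against Sham and 0.20 for IZ against BZ (exact permutation adjusted p = 0.36 for each).

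Whether the response of the mitochondrial genes differs with age at injury was tested as the difference between Old and Young responses. For Late IZ 0 of 36 members were called, against 3.67% of all genes, and 2 were called by DESeq2 and 0 by limma-voom. At an unadjusted p under 0.05 there were 11 members, all more negative in Old. The share of all genes at that unadjusted threshold is not given here, for this or the other responses. All 13 protein genes had a more negative response in Old than in Young hearts, with a median difference of -1.25 and, for COX1, -1.13 ± 0.51 (edgeR adjusted p = 0.198). For Late BZ 2 of 36 members differed, against 0.344% of all genes called lower. They are ND6 (-2.96 ± 0.74, edgeR adjusted p = 0.0464) and the tRNA gene at MT:15267-15335 (-5.06 ± 1.27, edgeR adjusted p = 0.0464). The count was 4 by DESeq2 and 0 by limma-voom, and it was 0 as well with no count filter, with the compared groups alone, with RNA integrity as a covariate and with Young Late batch 2 alone. Young Late BZ replicates 1 and 2, described above, were the high libraries of both genes. The count was 2 without Young Late BZ replicate 2, 1 without Young Late BZ replicate 3, Young Late Sham replicate 1 or Old Late BZ replicate 2 and 0 without each of the other 8. For Early IZ 0 of 36 were called, against 0.915% of all genes, with 1 at an unadjusted p under 0.05 and 0 by DESeq2 or limma-voom. For Early BZ 0 of 36 were called, against 0.22% of all genes, with 7 at an unadjusted p under 0.05, 3 by DESeq2 and 0 by limma-voom, and 1 without Young Early BZ replicate 2.

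**Figure D5:**
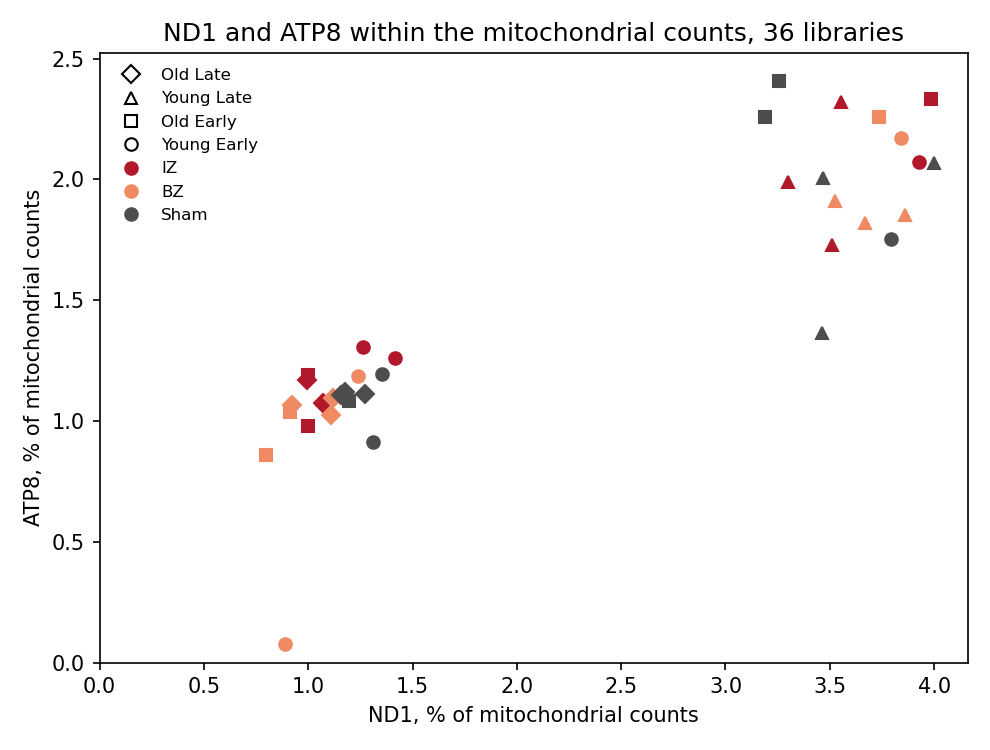
Share of mitochondrial counts on ND1 (x axis, percent) and on ATP8 (y axis, percent) in the 36 libraries, with set by symbol and zone by colour. The libraries fall into 2 clouds, 16 with ND1 at 3.19% to 4.00% and 20 with ND1 at 0.798% to 1.42%. The point lowest on the y axis, at 0.0758%, is Young Early BZ replicate 2.

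Libraries fell into 2 kinds in the make-up of their mitochondrial counts. The tRNA gene at MT:6129-6196, just after ND2, had 168 to 695 counts in 16 libraries and 0 to 3 counts in the other 20. The same 16 libraries gave ND1 3.19% to 4.00% of their mitochondrial counts, against 0.798% to 1.42% in the other 20. ATP8 took 1.37% to 2.41% in the 16 and 0.0758% to 1.31% in the other 20. The split was made on the tRNA gene at MT:6129-6196, at 100 counts, so its own separation is by construction. Besides it, ND1, ATP8 and 7 other tRNA genes separated these libraries without overlap, all higher in the 16. The share of all genes that separate the same libraries is not given here, so these members are not set against other genes. Both zones fell on the same side in 12 of 12 infarcted pigs, and 11 of 24 pigs were of the higher kind. Mitochondrial DNA passes through the mother, and the labels give no litter or maternal line. What sets the kinds apart was not tested. All 9 Young Late libraries and 0 of 9 Old Late libraries were of the higher kind. In Old Early hearts 1 IZ, 1 BZ and 2 Sham libraries were, and in Young Early hearts replicate 3 of each zone and of Sham. A comparison of Old Late with Young Late hearts therefore sets these kinds against each other, while comparisons of a zone with Sham in either Late set are within a kind. Comparisons of a zone with Sham in Old Early hearts set the kinds partly against each other.

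This bears on the sham hearts of different age. In Late Sham hearts 12 of 36 members were lower in Old (21 days old) than in Young pigs (9 days old), against 3.92% of all genes called lower. In 23 of 36 the Old libraries lay below the Young without overlap, against 16.5% of all genes. ND1 had 2619, 2734 and 2802 CPM in Old Late Sham and 16473, 13173 and 22300 CPM in Young Late Sham (-2.67 ± 0.79, edgeR adjusted p = 0.0292). COX3 had 28379, 29400 and 27185 CPM in Old and 78451, 38454 and 81967 CPM in Young (-1.23 ± 0.38, edgeR adjusted p = 0.0355). ND3 and the longer rRNA gene were lower in Old by 1.46 ± 0.36 and 1.38 ± 0.43 on the log2 scale, and the remaining 8 are tRNA genes. With a term for the 2 kinds of library, chosen after seeing the data, the count was 4 and ND1 was at -0.54 and not called. Leaving out a Young Late Sham library gave 7 in each case. Leaving out Old Late Sham replicate 1 gave 2, replicate 2 gave 1 and replicate 3 gave 4. RNA integrity was 7.8 to 8.4 in Old Late Sham and 6.6 to 7.6 in Young Late Sham, and with it as a covariate 1 member was called lower and 1 higher. Preparation batch, RNA integrity and age cannot be told apart in this comparison.

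In Early Sham hearts 3 of 36 members were higher in Old (15 days old) than in Young pigs (3 days old), against 17.5% of all genes called higher. They are the longer rRNA gene, with 1166, 4320 and 2719 CPM in Old Early Sham and 590, 789 and 2362 CPM in Young Early Sham (1.13 ± 0.43, edgeR adjusted p = 0.0464), and the tRNA genes at MT:2206-2273 and MT:11000-11068. The rRNA libraries of the groups overlapped. The count was 1 without Old Early Sham replicate 2 or 3 or Young Early Sham replicate 1 or 2, and 0 with preparation batch as a term. Between Late and Early Young Sham hearts 2 tRNA genes, at MT:2206-2273 and MT:10584-10652, were higher in Late, against 4.38% of all genes called higher. Of these, 1 was called without Young Late Sham replicate 2 or 3 or Young Early Sham replicate 1 or 2. The tRNA gene at MT:2206-2273, called in both comparisons, is among those that separate the 2 kinds of library. The higher kind held 3 of 3 Young Late, 2 of 3 Old Early and 1 of 3 Young Early Sham libraries. Both comparisons thus set the kinds partly against each other. Between Late and Early Old Sham hearts 0 members were called, against 0.0275% of all genes. DESeq2 called 1, and 1 was called without Old Early Sham replicate 1. At an unadjusted p under 0.05 there were 16 members, all lower in Late. The share of all genes at that unadjusted threshold is not given here.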

How the data were processed

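RNA-seq counts per gene were measured in 36 left ventricle libraries. Per the labels' protocols, polyadenylated RNA was made into stranded libraries and sequenced as paired reads of 76 bases. The submitters' processing notes name featureCounts of Subread 1.5.1, STAR, Trimmomatic 0.36 and bcl2fastq 2.19.0.316; genome build, annotation and strand setting are not given in the sources used here. The authors deposited whole-number read counts for each gene, without normalization. Replicates are separate pigs, and no 2 libraries of a group agreed within sampling noise (chi-square per degree of freedom at least 11.01).

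From the counts, library totals, shares and TPM (with the gene lengths in the file) were computed with Python 3.11.15, pandas 2.3.3 and numpy 2.4.6. Differences were tested in R 4.3.3 with edgeR 4.0.16: filterByExpr (minimum count 10, minimum total count 15), TMM factors, robust quasi-likelihood fit of 12 group means to all 36 libraries (14537 genes, 24 residual degrees of freedom) and Benjamini-Hochberg adjustment over all genes tested, with calls at an adjusted p under 0.05. IZ and BZ were compared in a fit to 24 libraries with the pig as a block (14386 genes, 8 residual degrees of freedom), where the pairing comes from both zones being cut from the same pig. For 1 Old Late BZ library the title was followed where the individual label names another pig. Library measures (share of all counts, rRNA share, tRNA share, ND6 per 1000 counts of the other protein genes, protein-gene counts per nuclear respiratory count) were compared on a log2 scale by exact two-sided permutation within sets (160000 arrangements) or sign flips within 12 pigs (4096). The p-values of these tests were adjusted over all 15 by Benjamini-Hochberg. The methods were tested on simulated data.

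All members are accounted for, and values per library are given for protein and rRNA genes. A panel of regulators was listed to be named whatever its values. Of that panel TFB2M, MTERF1, TEFM, MTPAP, PNPT1, NRF1 and GABPA are not given here. The tRNA genes given singly are the 1 not tested and others chosen after their values were seen. Not every called tRNA gene is given singly. Members, marker lists and gene lists were chosen with earlier results of these data known. Alternatives were other scalings, no count filter, DESeq2 1.42.0, limma-voom (limma 3.58.1) with the pig as a random block, the compared groups alone, batch and RNA integrity as terms, preparation batch 2 alone and each library left out; a term for 2 kinds of library and a tRNA sum without the gene next to COX1 were added after seeing the data. Figures were drawn with Matplotlib 3.10.9. The files hold 0 columns of other samples.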

Additional observations from a re-analysis of the deposited data

Results flagged for a closer look

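The response of the border zone to infarction differed between Old Late and Young Late hearts for ND6, by -2.96 on the log2 scale, and for the tRNA gene at MT:15267-15335, by -5.06, in the test of the difference itself (edgeR adjusted p = 0.0464 for each). Neither was called by limma-voom, with no count filter, with the compared groups alone, with RNA integrity as a covariate or with Young Late batch 2 alone, and 8 of 12 fits that left out a library called 0 members. ND6 was at -1.33 against Sham in Old Late and at 1.63 in Young Late BZ, and the tRNA gene at -0.76 and 4.30, of which the Old Late value of the tRNA gene was not called.

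In 4 measures the 3 pigs of a set all moved one way between the zones and those of another set all moved the opposite way, and these differences between sets were not tested. The mitochondrial share of counts was higher in IZ than in BZ by a mean log2 of 0.14 in Old Early pigs and lower, at -0.67, in Old Late pigs. The tRNA share of mitochondrial counts was higher in IZ by 0.62 in Old Early and 0.85 in Old Late pigs and lower, at -0.84, in Young Late pigs. Without the tRNA gene at MT:8059-8129 the pigs of each of these sets went both ways, with means of 0.15 in Old Early, -0.03 in Old Late and -0.01 in Young Late pigs. ND6 per 1000 counts of the other protein genes was higher in IZ by 0.52 in Old Early and 0.39 in Old Late pigs and lower, at -1.47, in Young Late pigs. Mitochondrial protein-gene counts per nuclear respiratory count were higher in IZ by 1.34 in Young Early and 0.46 in Old Early pigs and lower, at -0.15, in Old Late pigs. Without the pair of Young Early BZ replicate 2 the Young Early mean was 0.35.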

How the results depend on the processing

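No result changed direction once called, and none of the 15 tests on library measures changed its call under any alternative, although values that were not called changed sign under some. The count of Old Late IZ members called against Sham was 17 to 25 under every alternative, all lower. The counts that moved are given next, and the cause was not tested. The share of all genes called under each alternative is not given here, so these counts have no background beside them. With library totals, which shift the median of all genes by -0.205 to 0.612 on the log2 scale, the counts were 2 for Old Early IZ, 4 for Old Early BZ, 1 for the Late BZ response and 1 for Old Late IZ against BZ, and the Old Late IZ protein genes had a median of -1.22 with 13 of 13 below 0 and 11 called. Scaling on nuclear genes (shift -0.0431 to 0.128) gave 2 for Old Late BZ, and DESeq2 size factors gave 1 for Old Late IZ against BZ. With no count filter the counts were 0 for Young Early IZ, 1 for Early Sham, 0 for the Late BZ response and 1 for Old Late IZ against BZ. DESeq2's test gave 2 for Young Late IZ, 1 for Old Sham, 2 for the Late IZ response, 3 for the Early BZ response, 4 for the Late BZ response, and 2, 3 and 7 for IZ against BZ in Young Early, Young Late and Old Late. A fit of the compared groups alone gave 0 for Young Early IZ, 9 for Young Late IZ, 20 for Old Late BZ, 7 for Early Sham, 26 for Late Sham (3 of them higher), 6 for Young Sham, 2 for Old Sham, 8 for the Late IZ response, 0 for the Late BZ response and 19 for Old Late IZ against BZ. With RNA integrity as a covariate they were 0 for Young Early IZ, 9 for Old Early IZ, 3 for Young Late IZ, 2 for Young Late BZ, 12 for Old Late BZ, 1 for Early Sham, 2 for Late Sham (1 higher and 1 lower), 1 for Young Sham, 0 for the Late BZ response and 4 for Old Late IZ against BZ. With batch as a term they were 0 for Early Sham, 1 for the Late BZ response, and 1 and 6 for IZ against BZ in Young Early and Old Late; Late Sham and Old Sham could not be fitted with it. With Young Late batch 2 alone they were 0 for Young Late IZ, 1 for Young Late BZ, 4 for Late Sham, 1 for Young Sham and 0 for the Late BZ response. With limma-voom and the pig as a random replicate block they were 3 for Old Early IZ, 5 for Old Early BZ, 1 (lower) for Young Late BZ and 0 for the Late BZ response. With the term for 2 kinds of library they were 2 for Young Early IZ, 4 for Young Late IZ and 4 for Late Sham.

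For IZ against BZ, no replicate block gave 1 for Young Early and 0 for Old Late, and the pig taken from the individual label gave 0 for Old Late. With a library left out in turn, counts against Sham ran from 0 to 8 in Young Early IZ, 0 to 9 in Old Early IZ, 0 to 2 in Young Late IZ, 17 to 19 in Old Late IZ, 0 to 3 in Young Early BZ, 1 to 8 in Old Early BZ, 1 to 4 in Young Late BZ and 1 to 3 in Old Late BZ. They ran from 1 to 4 in Early Sham, 1 to 7 in Late Sham, 1 to 3 in Young Sham, 0 to 1 in Old Sham, 0 to 1 for the Early BZ response and 0 to 2 for the Late BZ response, and from 0 to 1, 0 to 3 and 0 to 0 for IZ against BZ in Young Early, Young Late and Old Late. Each gene result, meaning 1 protein or rRNA gene in 1 comparison, was counted once per alternative fit. In the main fit 34 of 300 were called. A call was lost 95 times with a library left out and 58 times under the other alternatives. The change went the other way, to a stronger result, 18 and 85 times. The tRNA genes with few counts limit what depth can show, and 13 of 15 protein and rRNA genes of the Old Late IZ kept their call without each library.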
